A study of Homo sapiens with 15 samples.

Results

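The dose responses of WT6 and WT10, the 2 clones with inducible wild type RBM47, were compared gene by gene across 10 of the 15 RNA-seq libraries. For each gene the slope of log2(normalized count + 1) on log2(doxycycline dose in ng/ml + 1) in the 5 libraries of WT10 was subtracted from the slope in the 5 libraries of WT6. Of the 23368 genes in the table, 12644 passed a filter on low values (mean of 10 or more normalized counts within every clone) and were tested, and 12116 of those had a transcript length and were also tested after the trend of the values on length had been removed. WT6 and WT10 carried a doxycycline-inducible FLAG-tagged wild type RBM47, and the third clone, MUT3, carried inducible RBM47-I281fs, a truncated form. Each clone was grown with 0, 1, 2.5, 5 and 25 ng/ml doxycycline, the duration of treatment being not given in the sources used here, and each clone and dose had 1 library. Every clone came from 1 sorted cell. The labels name the MDA231 breast cancer line for all 3 clones, whereas the methods of the study derived WT10 and MUT3 from its brain metastatic derivative 231-BrM2 and WT6 from CN34-BrM2, so that clone, parental line and transgene integration cannot be told apart. The normalized counts are the authors' reads per gene divided by a size factor per library, and the libraries held 14955172 to 44771871 reads on genes. VIM and CD44, markers of mesenchymal-type breast cancer cells, were high in every clone (lowest VIM value 50800), CDH1 was at or below 19.9, the epithelial keratins KRT8 and KRT18 were also high in the wild type clones (10100 to 31000 and 8660 to 24000), and SPARC separated the clones at 2.06 to 7.47 in WT6 against 1500 to 3210 in WT10. EPCAM, which marks epithelial cells, was at or above 213 in the wild type clones, and the defining markers of blood and endothelial cells, PTPRC and PECAM1, did not exceed 8.72 in these clones. ALB, also a marker of cells that a culture should lack, was 1.03 to 5.97 in WT6 and 0 to 53 in WT10 (median 1.99). It reached 42.2 in MUT3.

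RBM47 is an RNA-binding protein with RNA recognition motifs, and proteins of this kind set how long a messenger RNA lasts, how it is spliced and how much protein it gives. Doxycycline switches on a transgene behind a tetracycline-responsive promoter, and higher doses give more transcript. The slope on dose is the mean change in the log2 value for each unit of log2(dose + 1), and the doses spanned 4.70 such units, so that a slope difference of 0.2 over the whole range is close to 1 log2 unit.

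A slope difference between the clones was called for 1817 of 12644 genes (14.4%), at a Benjamini-Hochberg adjusted p below 0.05 from limma with all 15 libraries in the fit. The slope was higher in WT6 for 920 genes (7.28%) and lower for 897 (7.09%). Most of these genes responded in WT6 and did not pass the test in WT10: 754 rose in WT6 only (5.96%) and 666 fell in WT6 only (5.27%), against 63 that rose in WT10 only (0.498%) and 59 that fell in WT10 only (0.467%). Genes with called slopes of opposite sign were few, 20 that rose in WT6 and fell in WT10 (0.158%) and 24 that fell in WT6 and rose in WT10 (0.19%). A further 199 genes moved the same way in both clones at unequal rates, and 32 had a called difference with neither slope called. "Only" states here which slope passed the threshold beside a called difference, and a slope that missed it was not shown to be flat. The slopes of all genes tested correlated between the clones (Pearson's r = 0.601 across genes, which are not independent replicates). Since each clone and dose had 1 library, the p-values rest on the scatter of libraries around the lines of the clones. For each gene the estimate of spread was shared by all 15 libraries, those of MUT3 included. The p-values therefore do not measure the scatter of WT6 or WT10 alone. The median scatter was 0.18 in WT6, 0.106 in WT10 and 0.0765 in MUT3 (SD of the log2 values). Nothing in the sources used here says whether the libraries came from separate cultures. The interquartile range of the slopes over all genes tested was 0.232 in WT6, 0.118 in WT10 and 0.0394 in MUT3.

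**Figure D1:**
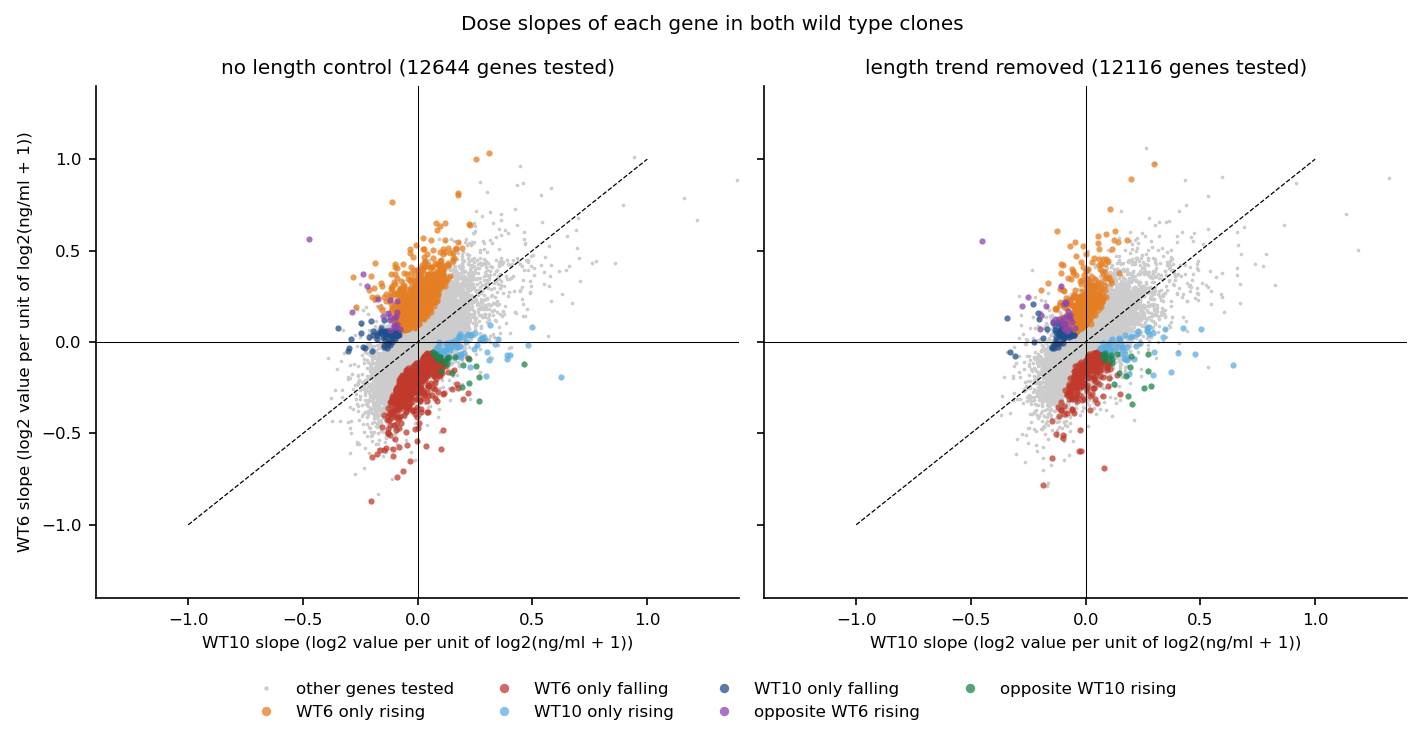
Slope of each gene in WT10 (x axis) against WT6 (y axis), in log2 value per unit of log2(ng/ml + 1), without (left, 12644 genes) and with (right, 12116 genes) the length trend removed. Colors mark the classes of response and the dashed line marks equal slopes; the classes called in WT6 only stretch along the vertical axis, with fewer points on the right.

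The size of this set changed with the libraries in the fit. With the 10 libraries of WT6 and WT10 alone, 3 genes were called (ARC, RCN3 and BMPER) and 3368 had an unadjusted p below 0.05. All 1817 genes kept their direction, but both fits take the difference from these same 10 libraries, so this is no separate support. The fit on 10 libraries had no MUT3 libraries, a median SE of 0.0616 against 0.0548 and a median of 11.6 degrees of freedom against 15.1. The part of each in the lower count was not tested. The median scatter of a gene around its line was 0.18 in WT6, 0.106 in WT10 and 0.0765 in MUT3 (SD of the log2 values with 3 residual degrees of freedom), and the WT6 library at 5 ng/ml lay farthest from the lines, with a median absolute residual of 0.179. Leaving that library out raised the count of called differences to 3714. Leaving out WT6 at 25 ng/ml lowered it to 73, and leaving out WT10 at 0 ng/ml lowered it to 59. Without WT6 at both 5 and 25 ng/ml 6 genes were called. RBM47 itself reached unequal levels at equal doses (258, 3137, 8094, 3966 and 10425 normalized counts from the lowest dose to the highest in WT6, and 168, 827, 2822, 8134 and 19877 in WT10). With the log2 RBM47 value in place of the dose 0 genes were called by limma, and 539 had an unadjusted p below 0.05.

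The class profiles showed where along the dose series WT6 changed. Over the 754 genes that rose in WT6 only, the median log2 change from the untreated WT6 library was 0.08, 0.08, 0.67 and 0.94 at the 4 rising doses. Over the 666 that fell in WT6 only it was -0.09, -0.11, -0.57 and -0.93 at the same doses. From the untreated WT10 library the medians in WT10 were -0.10, -0.15, -0.17 and -0.05 over the 754 genes. Over the 666 they were 0.08, 0.12, 0.10 and -0.06, beside -0.01, -0.01, -0.02 and -0.01 over all genes tested. The widest step in WT6 lay between the libraries at 2.5 and 5 ng/ml, of which the second had the lower RBM47 value (3966 against 8094). Over the 63 genes that rose in WT10 only, the medians in WT10 were 0.12, 0.25, 0.39 and 0.83. Of these 63 genes 39 increased at every dose, as 874 of all 12644 genes did in WT10. Each class was chosen for a slope in these same libraries, so its profile is no separate support. In WT6, 205 of the 754 rising genes increased at every dose, beside 799 of all genes.

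Transcript length ran through the difference between the clones. Genes were split by transcript length into 5 groups of like size. In the group with the shortest transcripts (61 to 1781 bases) the median slope was 0.15 in WT6 and 0.02 in WT10, and in the group with the longest (5801 to 109224 bases) it was -0.11 and -0.02. Accordingly 482 of the 2425 genes with the shortest transcripts had a higher slope in WT6 and 10 a lower one, whereas among the 2422 with the longest 37 had a higher slope and 407 a lower one. Across genes, Spearman's rank correlation between transcript length and slope was -0.524 in WT6, -0.156 in WT10 and 0.0993 in MUT3. The genes that rose in WT6 only had a median transcript length of 1644 bases and those that fell in WT6 only 5765.5 bases, beside 3301.5 bases over all genes tested. After the trend on length was removed the shortest group had 128 higher and 62 lower calls and the longest 105 and 86. What the length trend came from was not tested.

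With the length trend removed, the difference was called for 973 of 12116 genes (8.03%), 545 higher in WT6 (4.5%) and 428 lower (3.53%). The classes called in WT6 only shrank most, to 388 rising (3.2%) and 241 falling (1.99%). The classes of WT10 had 58 rising genes (0.479%) and 54 falling (0.446%). The opposite classes had 30 genes with WT6 rising (0.248%), up from 20, and 21 with WT10 rising (0.173%), down from 24. Of the 1763 genes with a length that were called before, 713 were called in both fits and 0 of those turned direction, while 260 were called only after the removal. The same class was kept by 277 genes rising in WT6 only, 188 falling in WT6 only, 15 rising and 14 falling in WT10 only, 7 with WT6 rising against WT10 and 9 with WT10 rising against WT6. Base composition was not removed with length. After the removal the genes rising in WT6 only had a median GC content of 55.84% and those falling 42.75%, beside 48.02% over all genes. When GC content was removed as well, 1825 genes were called. With length removed and the 10 wild type libraries alone, 123 genes were called, and 123 of these were among the 973 with the same direction. Both fits take the difference from the same 10 libraries, so this overlap is no separate support. The genes named below were called with and without the length control unless said otherwise.

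FBXO32, the F-box protein atrogin-1 that directs muscle proteins to degradation, had the largest difference among the genes that rose in WT6 only in both fits and averaged at least 100 normalized counts in each clone. Its normalized counts in WT6 were 62.5, 54.6, 50.3, 113 and 303 from 0 to 25 ng/ml, and in WT10 they ran 432, 478, 445, 467 and 580. All WT6 values lay below all WT10 values, and the WT6 values rose from 5 ng/ml on. The slope difference was 0.53 ± 0.09 (SE, Benjamini-Hochberg adjusted p = 0.00671 from limma), and the WT10 slope of 0.08 had a 95% interval of -0.02 to 0.19. LMCD1, a LIM domain protein that restrains GATA transcription factors, increased with dose in WT6 from 467 and 443 through 640 and 940 to 1614, with WT10 between 143 and 203 and MUT3 between 103 and 132. Its slope difference was 0.49 ± 0.07 (adjusted p = 0.00362) and became 0.59 with the length trend removed (transcript of 8284 bases).

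PHLDA3, an inhibitor of AKT signaling, rose at every dose in WT6, at 52.6, 59.7, 81.8, 131 and 229, and stayed within 243 to 348 in WT10. STARD10, a phospholipid transfer protein, rose from 57.0 to 314 in WT6 and lay at 348 to 462 in WT10. For both genes every WT6 library lay below every WT10 library. APOC1, an apolipoprotein, stepped up in WT6 between 2.5 ng/ml (257) and 5 ng/ml (710), and its slope difference shrank from 0.44 to 0.30 with the length trend removed. HSPA6, a stress-inducible HSP70 chaperone, had the steepest WT6 slope of the genes named, with 7.67, 43.2, 107, 223 and 629 normalized counts. In WT10 it was 37.6 to 40.0 up to 5 ng/ml and 98.4 at 25 ng/ml, and the slopes were 1.04 and 0.31 (adjusted p of the difference 0.0148).

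The genes named among those that fell in WT6 only had a step down between 2.5 and 5 ng/ml. MAN2A1, a Golgi mannosidase that trims N-linked sugars, was 2178, 2110 and 2198 in WT6 up to 2.5 ng/ml and 691 and 583 above, while WT10 ran from 1054 over 1488 at 5 ng/ml to 1075. UGCG, which makes glucosylceramide, went from 811, 696 and 789 to 282 and 278 in WT6 and stayed at 686 to 917 in WT10. GAS2L3, a linker of actin and microtubules that acts in cytokinesis, fell from 271, 221 and 181 to 27.2 and 22.4 in WT6. In WT10 it was 286 to 346 at the 4 lower doses and 147 at 25 ng/ml, and the difference in slope was -0.66 ± 0.18 (adjusted p = 0.0285). FAM196B dropped in WT6 from between 361 and 447 to 95.4 and 83.5. NOMO3 dropped from between 142 and 191 to 49.0 and 32.4, but its reads are shared with near-identical NOMO copies and its count is uncertain. The MUT3 values of these 5 genes at 25 ng/ml ran from 198 to 1132.

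Of the genes called in WT10 only, which were chosen for a slope in these same libraries, 39 of 63 rose and 45 of 59 fell at every dose, beside 874 and 1218 of all genes tested. COL7A1, the anchoring fibril collagen, was 1154, 1092, 1179, 1334 and 2921 in WT10 and 767 to 1273 in WT6. The slope difference was -0.41 ± 0.08 (adjusted p = 0.0126), and with the length trend removed -0.31. CLDN1, a tight junction claudin, rose in WT10 from 105 to 255 and held at 653 to 721 in WT6, with WT6 above WT10 in every library. TGFA, a ligand of the EGF receptor, rose in WT10 from 438 through 461, 512 and 544 to 782, while WT6 lay at 1437 to 1680. INHBA, the subunit of activin A, rose in WT10 from 77.9 to 176 beside 327 to 479 in WT6. CPEB4, a regulator of polyadenylation and translation, rose at every dose in WT10, from 528 to 1043. IL7R, the receptor chain for interleukin 7 and TSLP, had the largest difference of the 15 genes kept in this class, with 29.2, 43.4, 62.8, 108 and 228 in WT10 and 307, 345, 514, 165 and 201 in WT6 (difference -0.81 ± 0.15, adjusted p = 0.011). The others of the 15 were SLC26A7, CYTH4, TSPAN2, RGS4, GGT1, ATP1B1, RETSAT, NMD3 and AKIRIN1.

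IGFBP3, which binds insulin-like growth factors in the extracellular space, fell in WT10 only, at 2734, 2375, 2177, 1899 and 997 normalized counts, each lower than the one before. WT6 lay at 709 to 960 and MUT3 at 3669 to 3955. The slopes were -0.30 in WT10 and -0.05 in WT6 (95% interval -0.12 to 0.03), and the difference was 0.26 ± 0.05 (adjusted p = 0.0119). MYL9, a regulatory light chain of myosin in contractile cells, fell in WT10 from 1471 to 826 at every step and ranged from 1207 to 1646 in WT6. LEF1, a transcription factor of the Wnt pathway, fell in WT10 from 485 to 234, and FZD8, a Wnt receptor, from 568 to 321, whereas in WT6 they lay at 93.4 to 125 and at 196 to 247. LEF1 passed the test narrowly (adjusted p = 0.0477). ZFP36L1, which destabilizes messenger RNAs with AU-rich elements, fell in WT10 from 6017 to 4458 and lay at 4858 to 5345 in WT6. C7orf50, CILP2, GAD1, CREB3L1, C9orf3, RIN1, BTBD6, RFTN1 and ALDH1B1 completed the 14 genes kept in this class.

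ARC, an activity-regulated gene of neurons that serum and growth factor signals also induce, had the largest difference of the 16 genes with opposite directions in both fits. In WT6 it was 47.1, 80.3, 135, 163 and 340 normalized counts, higher at each dose than at the last. In WT10 it was 321, 280, 303, 223 and 47.7, and in MUT3 30.0 to 46.1. The slopes were 0.56 in WT6 and -0.47 in WT10, a difference of 1.03 ± 0.12 (adjusted p = 0.00143), and the difference was called in the 10 wild type libraries alone (adjusted p = 0.0234). TAGLN, the actin-binding protein transgelin, rose in WT6 from 133 without doxycycline to 255 and 217 at the 2 highest doses and fell in WT10 from 563 to 220. The clones did not overlap up to 5 ng/ml and stood at 217 and 220 at the highest dose. L1CAM, a neural adhesion molecule, rose in WT6 from 84.4 to 182 and fell in WT10 from 516 to 364. HIST1H1C, a linker histone, rose from 1296 to 2508 and fell from 2947 to 1642, with the caution that histone genes share sequence. In MUT3 HIST1H1C went from 3908 to 2912, a slope that was not called. ARFRP1, a small GTPase of the trans-Golgi, rose in WT6 from 1296 to 1915 and fell in WT10 from 1316 to 945. CLU, the extracellular chaperone clusterin, rose from 63.6 to 130 and fell from 817 to 622. RCN3, a calcium-binding protein of the endoplasmic reticulum, completed the 7 genes of this class kept in both fits, at 122 to 394 in WT6 and 96.2 to 134 in WT10 up to 5 ng/ml.

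BMPER, a secreted modulator of bone morphogenetic proteins, led the genes that fell in WT6 and rose in WT10. Its values were 546, 491, 439, 305 and 201 in WT6 and 119, 111, 130, 157 and 253 in WT10, with MUT3 at 413 to 455. The clones crossed between 5 and 25 ng/ml. The difference was -0.59 ± 0.06 (adjusted p = 0.000351), the smallest adjusted p of the genes named, and in the 10 wild type libraries alone the adjusted p was 0.0125. EPB41L3, a membrane skeleton protein, fell from 17504 to 11960 in WT6 and was 153 to 174 in WT10 up to 5 ng/ml and 351 at 25 ng/ml. PTX3, a pentraxin that joins innate defense, rose in WT10 from 1629 to 2654, and in WT6 it was 1153 to 1302 up to 5 ng/ml and 888 at 25 ng/ml. ZNF721 fell from 485 to 300.2 and rose from 220 to 298. GFPT2, an enzyme of the hexosamine pathway, fell from 1465 to 1150 and was 1323 to 1380 in WT10 until 1776 at 25 ng/ml. L3MBTL4, CXCR4, MPP4 and MAL2 were the others of the 9. CXCR4, the receptor for the chemokine CXCL12, fell from 105 to 46.1 in WT6 and rose from 103 to 192 in WT10, with a low of 86.8, and was 416 to 476 in MUT3.

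**Figure D2:**
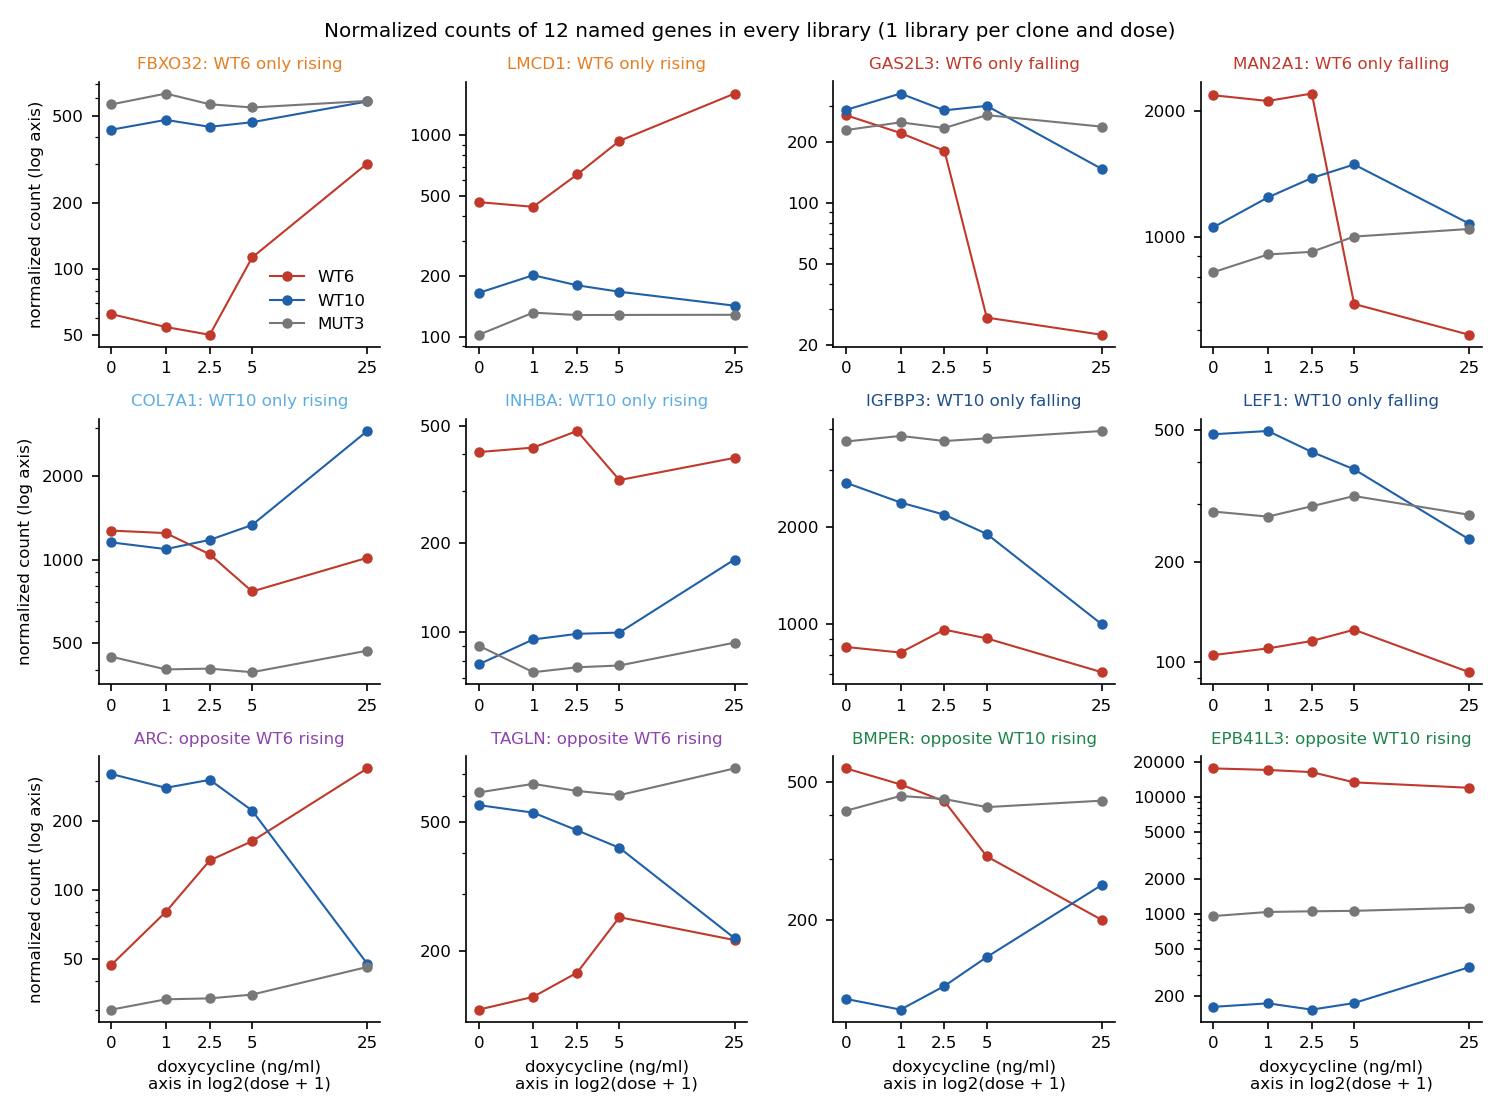
Normalized counts (y axis, log scale) of 12 named genes at each doxycycline dose (x axis, ng/ml, spaced by log2(dose + 1)) in WT6, WT10 and MUT3, each point being 1 library. The top row responds in WT6 only, the middle row in WT10 only and the bottom row in opposite directions, as ARC does from 47.1 to 340 in WT6 and from 321 to 47.7 in WT10.

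Genes of cell division fell more steeply in WT6 than in WT10. Of 35 mitosis genes tested, 16 had a lower slope in WT6 and 0 a higher one, against 7.09% and 7.28% of all genes, and with the length trend removed the counts were again 16 and 0, of which 12 were the same genes. The list fell in both clones: its median slope was -0.25 in WT6 and -0.13 in WT10, and 13 of the 16 genes had called slopes in both. ECT2, the exchange factor that triggers the cytokinetic furrow, was 3868, 3366, 3020, 2179 and 1059 in WT6 and 2859 to 3301 in WT10 up to 5 ng/ml, with 2111 at 25 ng/ml. DLGAP5, a spindle protein, went from 3969 to 1003 in WT6 and from 2177 to 1282 in WT10. The median log2 change of the list from the untreated library was -0.38, -0.49 and -1.21 at the 3 highest doses in WT6 and 0.01, -0.08 and -0.59 in WT10. In each of 3 alternatives limma called 0 of the 35: without WT6 at 25 ng/ml (median difference -0.07 in place of -0.12), without the untreated WT10 library (-0.08) and with the 10 wild type libraries alone (-0.12). Over all 12644 genes the same settings called 73, 59 and 3, so the 0 of 35 is no result about this list.

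Lists next to mitosis also held lower calls, to be read against 7.09% of all genes called lower, and 3.53% with length removed. Among kinesin motors, some of which are also in the mitosis list, 10 of 31 had a lower slope in WT6 and 5 of 31 after length was removed, KIF14 falling from 1490 to 318 in WT6 and from 1321 to 804 in WT10. Of 38 DNA replication genes 5 were lower in WT6, and 9 with the length trend removed. CCNE2, the cyclin that starts S phase, was 719 and 414 at the ends of the WT6 series and 536 and 580 in WT10. RFC1, the large subunit of the clamp loader, went from 1808 to 792 in WT6 and lay at 817 to 1103 in WT10. Of 26 nuclear pore genes 7 were lower and 1 higher in WT6, and 3 and 0 with length removed. NUP210, a membrane ring protein of the pore, fell in both, from 415 to 56.1 in WT6 and from 717 to 276 in WT10, and NUP155 went from 2008 to 822 in WT6 beside 793 to 1028 in WT10. ARHGAP11A, a GTPase-activating protein of dividing cells, fell from 2954 to 1035 in WT6 and was 1753 to 2521 in WT10.

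Genes for short, abundant transcripts of the translation and energy machinery had list medians above 0 without the length control. The shares of all genes called higher were 7.28%, and 4.5% with length removed. Among 82 cytosolic ribosomal protein genes 80 had a higher slope in WT6, with a median difference of 0.15, but 4 were called higher and 1 lower. Their median length was 878 bases, and with the length trend removed the median difference was 0.03 and 1 was called, RPL13, with 18552 and 29868 at the ends in WT6 and 16822 and 14138 in WT10. For 75 mitochondrial ribosomal proteins the calls went from 13 higher and 0 lower to 2 and 1, and the median difference from 0.15 to 0.05. For 77 subunits of the respiratory chain and ATP synthase they went from 9 to 1, and the median from 0.17 to 0.06. The WT6 library at 5 ng/ml stood highest. The median log2 change of the cytosolic list was -0.11, 0.93 and 0.55 at the 3 highest doses in WT6, and between -0.05 and -0.02 in WT10. Without that library 54 of the 82 were called higher, beside 1994 of all 12644 genes, and the list's median difference was 0.12 in place of 0.15. Without WT6 at both 5 and 25 ng/ml the median difference was -0.05. Members that kept the call in both fits were MRPL55, MRPS12 and the complex I subunit NDUFV3, the last with 806 and 1330 in WT6 and 713 and 649 in WT10. Of 37 proteasome subunits 4 were higher and 1 lower, and 1 and 4 with length removed, and the median difference went from 0.05 to -0.03. PSMD9 was higher and PSMD11 lower in WT6 in both fits.

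S100 proteins and metallothioneins, small calcium-binding and metal-binding proteins, had the largest shares of called genes among the lists without the length control. Over all genes tested, 5.96% rose in WT6 only, and 4.5% had a higher slope in WT6 with the length trend removed. Of 9 S100 genes 7 rose in WT6 only, and with the length trend removed 5 had a higher slope in WT6. The median difference was 0.37, and 0.24 with length removed. S100A4, linked to motility and metastasis, was 38.4, 58.7, 52.9, 146 and 159 in WT6 and 149 to 190 in WT10 up to 5 ng/ml, with 81.9 at 25 ng/ml. S100A13 rose at every dose in WT6, from 799 through 952, 1019 and 2244 to 2946, and was 1246 to 1469 in WT10. Of 5 metallothionein genes 4 rose in WT6 only, and 3 remained higher with length removed. MT1X went from 1209, 1116 and 1036 to 2478 and 2437 in WT6, and from 1079 to 726 in WT10, where the slope passed the test only after the removal. Reads of metallothioneins are shared among near copies, so single members are uncertain. The median log2 change of the S100 list in WT6 was 0.10 at 2.5 and 1.37 at 5 ng/ml, and that of the metallothioneins -0.11 and 1.06. Without WT6 at 5 and 25 ng/ml their median differences were 0.01 and 0.03.

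Ferritin genes had the same step in WT6. FTH1, the ferritin heavy chain, went from 31792, 35679 and 36024 to 64666 and 65506 in WT6 and from 26311 to 17630 in WT10. FTL, the light chain, went from 65063 to 165116 in WT6 and lay at 50851 to 63862 in WT10. They were 2 of the 4 of 25 NRF2 antioxidant genes that were higher in WT6, against 3 higher and 1 lower with length removed, while the list's median difference was 0.01. Of all genes 7.28% were called higher, and with length removed 4.5% higher and 3.53% lower. Of 29 histone genes 7 were higher and 3 with length removed, HIST1H2BD among them with 115 and 460 in WT6, and the list's median difference turned from 0.09 to -0.01. TIMP1, an inhibitor of matrix metalloproteases, rose in WT6 at every dose but 2.5 ng/ml, from 4392 to 13783, and stood at 2736 to 3676 in WT10.

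**Figure D3:**
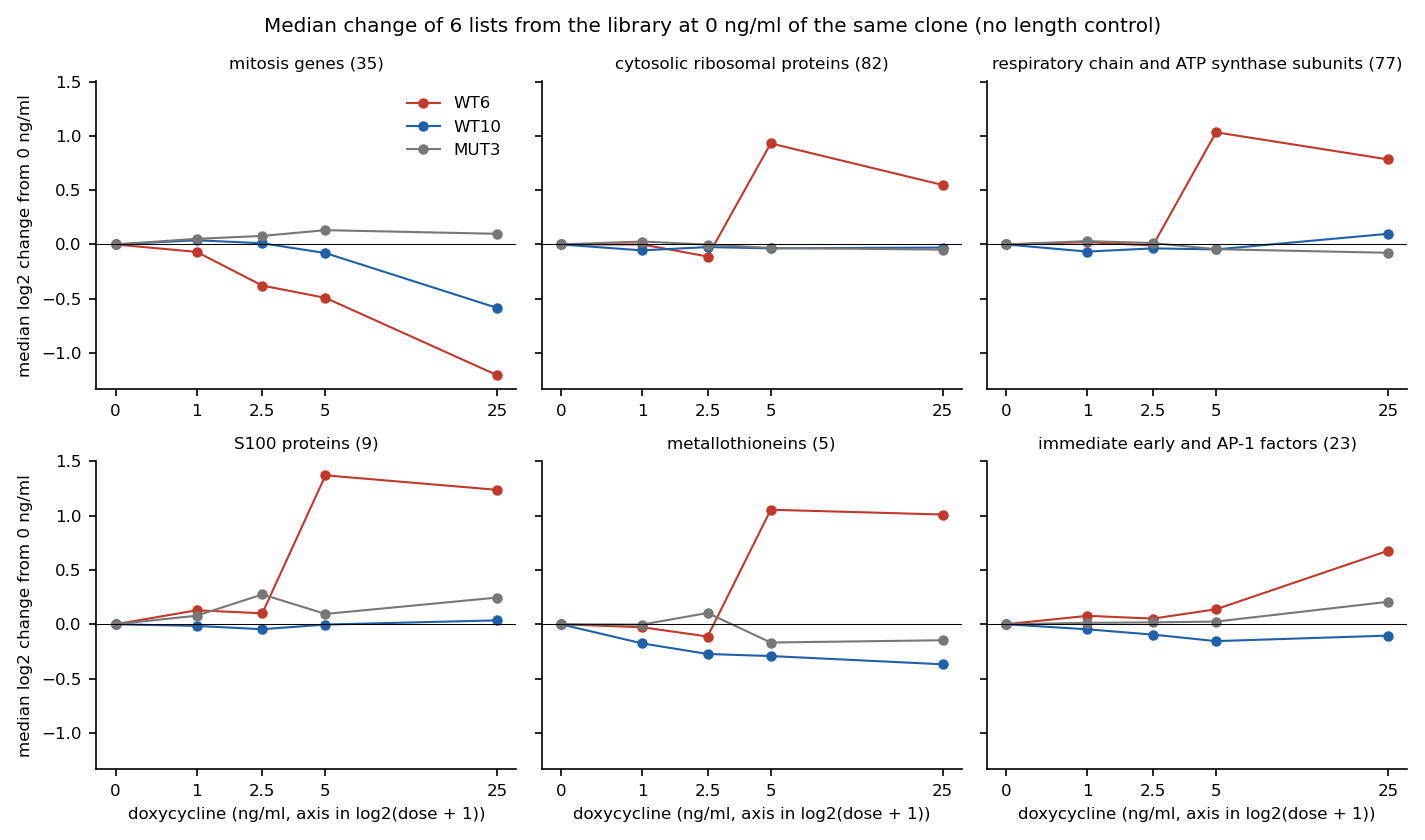
Median log2 change from the 0 ng/ml library of the same clone (y axis) at each dose (x axis, ng/ml) for 6 lists, with the number of genes tested in parentheses and no length control. Mitosis genes fall in WT6 to -1.21 and in WT10 to -0.59, while the ribosomal, respiratory, S100 and metallothionein lists step up in WT6 between 2.5 and 5 ng/ml.

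Immediate early and AP-1 genes, transcription factors and regulators switched on within minutes of a growth signal, were higher in WT6 for 10 of 23 and lower for 1, and for 7 and 1 with length removed, beside 7.28% and 7.09% of all genes, and 4.5% and 3.53% with length removed. The median difference was 0.09 and then 0.10. FOS was 138, 148, 143, 202 and 315 in WT6 and 70.8 to 88.7 in WT10, and its slopes were 0.28 and -0.01 (adjusted p of the difference 0.0229). The median log2 change of the list in WT6 was 0.05, 0.14 and 0.68 at the 3 highest doses, and between -0.16 and -0.05 in WT10. Without WT6 at 25 ng/ml, without the untreated WT10 library or with the wild type libraries alone, 1 of the 23 was called. Over all 12644 genes these settings called 73, 59 and 3. ARC belongs to this list as well.

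Receptors and ligands of the EGF family split. Of 9 tested, 2 were higher and 3 lower in WT6, and 3 and 3 with length removed, when this list had the largest share of called genes. Over all genes 7.28% were higher and 7.09% lower, and 4.5% and 3.53% with length removed. EGFR fell in WT6 from 5971, 5720 and 5342 to 1807 and 1484 and was 4011 to 4694 in WT10 up to 5 ng/ml, with 2812 at 25 ng/ml (difference -0.37 ± 0.11, adjusted p = 0.0352). ERBB3, a kinase-impaired partner of ERBB2, rose in WT6 from 20.8 to 68.5 and lay at 66.8 to 88.7 in WT10. TGFA, described above, rose in WT10 only. Among MAPK phosphatases, Sproutys and ETS targets, the phosphatase DUSP23 rose in WT6 from 502 to 1765 and SPRED1, an inhibitor of Ras to MAPK signaling, fell from 2178 to 1056. The list held 6 higher and 5 lower of 27, and 2 and 4 with length removed.

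Structural matrix proteins and adhesion receptors were next. None of 20 collagens, 10 laminins, 14 integrins and 14 cadherins was called higher, and 3, 3, 0 and 1 were called lower, with 3, 2, 0 and 0 after length was removed. The shares of all genes called lower were 7.09% and 3.53%, and the laminins, at 3 and 2 of 10, stood above them. LAMB1 lay at 1120 to 1743 in WT6 and 579 to 668 in WT10. COL8A1 stepped down in WT6 from between 11474 and 12330 to 6357 and 6984 and was 5424 to 6105 in WT10. The medians of these 4 lists lay between -0.11 and -0.17, and between -0.03 and -0.09 with length removed. Their median transcripts were 5010 to 7724 bases long. Among keratins, filament proteins of epithelia, KRT19 rose at every dose in WT6 from 1507 to 3994 and was 1286 to 1588 in WT10, and KRT80 fell in both, from 8904 to 2697 in WT6. Of 25 matrix metalloproteases, ADAMs and TIMPs 4 were higher and 2 lower, and 4 and 3 with length removed. MMP24, a membrane-type protease, rose in WT6 from 435 to 1578.

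Inflammatory genes differed by member. Counts of lists here stand beside 7.28% of all genes called higher and 7.09% lower, and 4.5% and 3.53% with length removed. TNFAIP3, the ubiquitin-editing inhibitor of NF-kB known as A20, rose in WT10 at every dose from 248 to 776 and was 574 to 789 in WT6, with a difference of -0.34 ± 0.05 (adjusted p = 0.00636). RELB, a subunit of the noncanonical NF-kB pathway, rose at every dose in WT6 from 284 to 855 and in WT10 from 1346 to 1742, more steeply in WT6. Of the 18 NF-kB genes 2 were higher and 2 lower in each fit. IL1B rose in both clones, more in WT10 (54.1 to 894) than in WT6 (28.5 to 103). IL8 and DKK1 rose in both, and their slope differences were not called (-0.14 with adjusted p = 0.275 and -0.05 with adjusted p = 0.519). Of 17 genes of MHC class I and peptide loading 6 were higher in WT6 and 0 lower, 3 and 0 with length removed. HLA-B rose in WT6 from 529 to 1398 and was 8686 to 10994 in WT10. HLA genes share reads with one another. Of 41 interferon-stimulated genes 2 were higher and 3 lower, and 0 and 1 with length removed, the median slopes being 0.10 in WT6 and 0.10 in WT10. TNFRSF14 rose in WT6 from 36.2 to 156, and TNFRSF21 fell from 3347 to 1604.

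Of 25 genes of cholesterol metabolism 5 were higher and 1 lower in WT6, above the 7.28% and below the 7.09% of all genes. With length removed 1 was higher and 1 lower, beside 4.5% and 3.53% of all genes. NSDHL, an enzyme of cholesterol synthesis, rose at every dose in WT6 from 688 to 1482 and was 822 to 978 in WT10. NPC1, which exports cholesterol from lysosomes, fell in WT6 from 6097 to 2389, and in WT10 from 2163 to 1668. VEGFA fell in WT6 only (difference -0.21, adjusted p = 0.0345) and SLC2A3, the glucose transporter GLUT3, rose there from 376 to 643. DDIT4, a stress-induced inhibitor of mTORC1, rose in WT10, at 688 to 758 up to 5 ng/ml and 1353 at the highest dose, and went from 12822 to 9653 in WT6. EPRS, a tRNA synthetase, fell in WT6 from 5463 to 1861. Of 33 hypoxia and glycolysis genes 2 were higher and 4 lower, and 1 and 3 with length removed. Of 33 ATF4 and amino acid genes 1 was higher and 3 lower, and 0 and 2 of 31 with length removed.

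The background for the next lists was 7.28% of all genes called higher and 7.09% lower, and 4.5% and 3.53% with length removed. Of 16 BCL2 family genes 2 were higher and 1 lower, and 1 and 2 with length removed, and the median difference went from 0.03 to -0.02. BOK was higher and MCL1 lower in both fits, MCL1 falling in WT6 from 11658 to 8130. Among 50 regulators of messenger RNA decay 3 were higher and 8 lower in WT6, and 3 and 3 with length removed, CPEB4 and ZFP36L1 being the named members. Of 29 SR and hnRNP splicing factors 1 was called, SRSF8, at 1041 to 1419 in WT6 and 1268 to 1351 in WT10.

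The 447 ZNF zinc finger genes lost most of their calls with the length control. The share called over all genes also fell, from 14.4% to 8.03%. It was 7.28% higher and 7.09% lower without the control, and 4.5% and 3.53% with it. Without the length control 14 ZNF genes were higher and 42 lower in WT6, with a median difference of -0.05 and a median transcript of 3900 bases. With it 10 were higher and 13 lower, and the median was -0.02. ZNF175 fell in WT6 from 142 to 68.5, and ZNF593, whose transcript has 638 bases, rose from 801 to 1922. Ubiquitin-specific proteases went from 6 of 45 lower to 1. Solute carriers held 13 higher and 12 lower of 199. Of 52 F-box proteins 5 were higher and 3 lower, and 4 and 0 with length removed, FBXO32 and FBXL15 being higher in both fits, and the median difference went from -0.04 to 0.01.

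**Figure D4:**
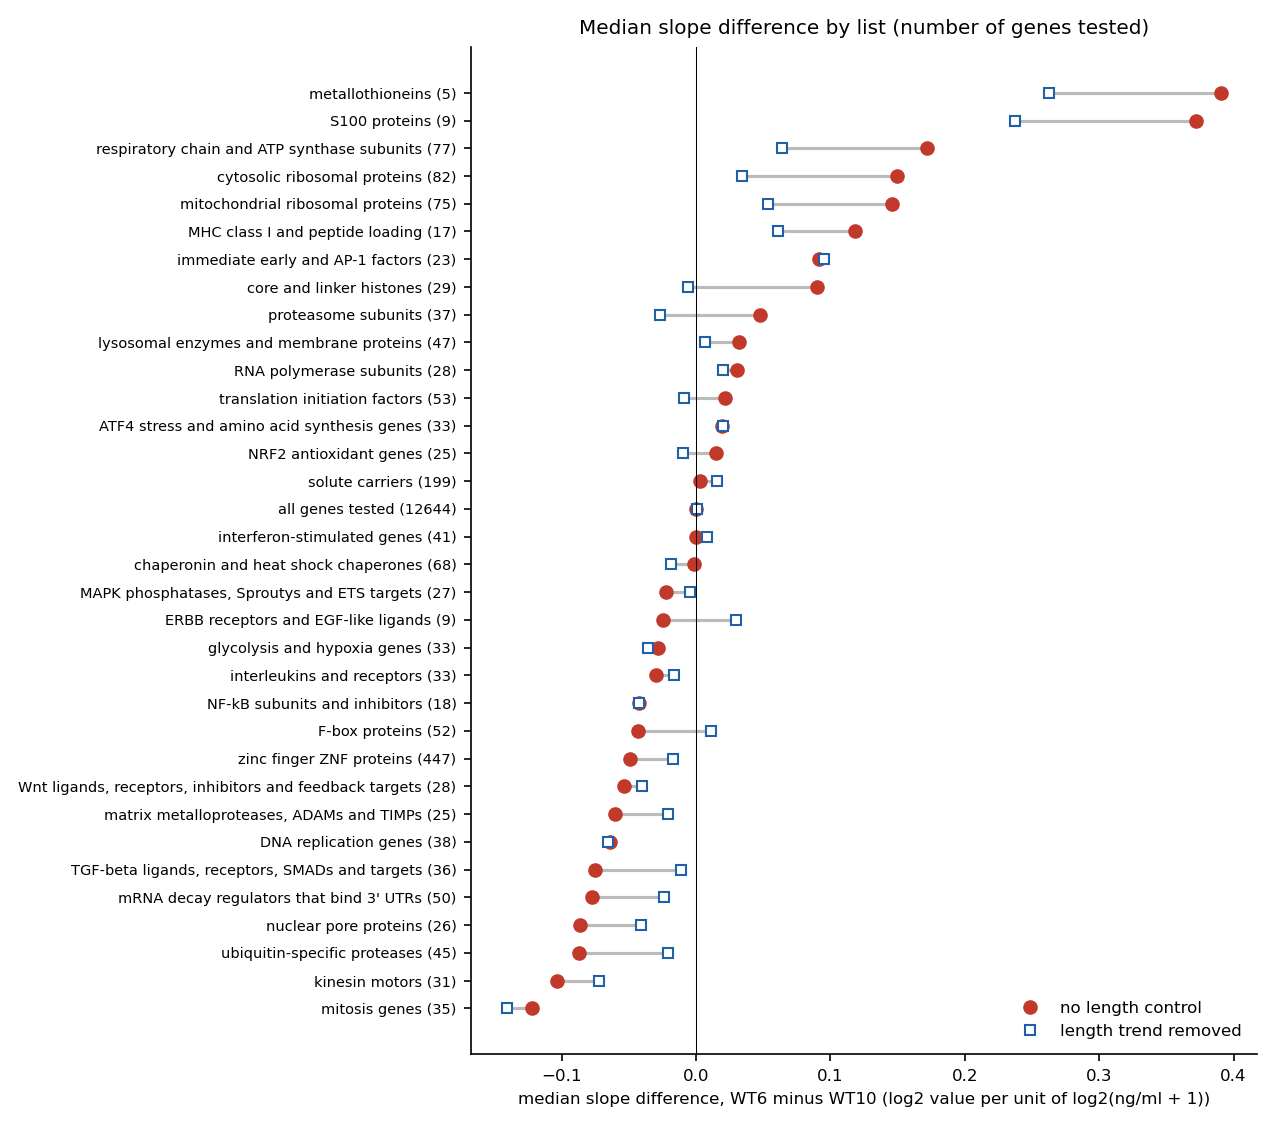
Median slope difference, WT6 minus WT10 (x axis, log2 value per unit of log2(ng/ml + 1)), of the lists shown, each with at least 4 called members, and of all genes tested, without (filled circles) and with (open squares) the length trend removed, with the number tested in parentheses. Ribosomal, respiratory and ZNF lists move toward 0, whereas the mitosis list stays at -0.12 and -0.14 and the immediate early list at 0.09 and 0.10.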

How the data were processed

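RNA was polyA selected, sequenced in paired ends on a HiSeq 2000, mapped to hg19 with STAR and counted per gene symbol with HTSeq 0.5.4 at default settings by the authors, who then scaled each library's counts by its DESeq size factor. These normalized counts form the deposited signal values, 1 column for each of the 15 libraries, with 5 HTSeq tallies that were left out. Strand settings are not given in the sources used here. Reads on no gene were 56.54% to 59.59% of a library. A floor of 3 reads corresponded to 1.192 to 4.087 normalized counts, which limits genes of low value.

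Each library's values were whole multiples of the worth of 1 read for 100% of genes within a tolerance of 0.001, and the reads so recovered served the count-based alternatives. Genes with a mean of at least 10 in each clone were fitted in limma 3.58.1 (R 4.3.3) on log2(value + 1), with an intercept and a dose slope per clone and vooma precision weights. The slope of WT10 was subtracted from that of WT6 (two-sided moderated statistics, Benjamini-Hochberg adjustment over all genes tested, threshold 0.05). A fold on this scale understates the change of low genes. All 15 libraries shared the estimate of spread. For the length control, a natural spline with 4 degrees of freedom on log2 transcript length was removed from each library's deviation from its clone mean. Lengths and GC content came from GENCODE transcripts on hg19. Genes were matched by symbol (19556 genes), by an older symbol listed in RefSeq (1933) or not at all (1879). The script was tested on simulated data.

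Members and the 52 gene lists were chosen with earlier results of these data known, so no list has a p-value. Named genes were the 5 with the largest difference in each of 6 classes, among those in the class in both fits with a mean of at least 100 in both wild type clones, the 2 largest in each list called in the same direction in both fits, and RBM47, IL8 and DKK1. RCN3, CXCR4 and the other members listed for the small classes were added after their values were seen. Some named genes and lists are not reported here. No sample was left out. Alternatives covered the libraries, dose scale, GC content, weights, pseudocount (0.5 and 5), filters (1 and 50), TMM factors, and edgeR 4.0.16 and DESeq2 1.42.0 on recovered reads. Figures were drawn with matplotlib 3.10.9.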

Additional observations from a re-analysis of the deposited data

Results flagged for a closer look

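The test of the difference in dose slope between WT6 and WT10 (limma with all 15 libraries, adjusted p below 0.05) marked the genes listed here for a closer look. The values below are slope differences, WT6 minus WT10, in log2 value per unit of log2(ng/ml + 1), without the length control. Named genes were picked for large differences, so their number is no result. With 1 library for each clone and dose, no library could be compared with others of its group.

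Among genes that rose in WT6 only the difference was 0.53 for FBXO32, 0.49 for LMCD1, 0.44 for APOC1, 0.44 for PHLDA3, 0.44 for STARD10, 0.23 for RPL13, 0.28 for MRPL55, 0.26 for MRPS12, 0.22 for NDUFV3 and 0.18 for PSMD9. Further values were 0.73 for HSPA6, 0.23 for DNAJC30, 0.10 for SRSF8, 0.29 for LSM7, 0.39 for HIST1H2BD, 0.37 for ZNF593, 0.35 for MMP24, 0.32 for TIMP1, 0.30 for KRT19 and 0.62 for S100A4. Others were 0.41 for S100A13, 0.57 for MT1F, 0.39 for MT1X, 0.36 for TNFRSF14, 0.26 for HLA-B, 0.25 for NSDHL, 0.21 for SLC2A3, 0.37 for FTH1 and 0.30 for FTL. The next were 0.29 for ARSA, 0.41 for ERBB3, 0.40 for DUSP23, 0.28 for FOS, 0.18 for BOK, 0.30 for TP53I3, 0.36 for SLC6A8 and 0.33 for FBXL15. Among genes that fell in WT6 only it was -0.66 for GAS2L3, -0.48 for NOMO3, -0.47 for MAN2A1, -0.45 for FAM196B, -0.42 for UGCG, -0.16 for PSMD11, -0.25 for NUP155, -0.21 for CCNE2, -0.19 for RFC1 and -0.30 for ECT2. Further values were -0.28 for KIF20B, -0.33 for ZNF175, -0.24 for COL8A1, -0.18 for LAMB1, -0.16 for TNFRSF21, -0.21 for VEGFA, -0.26 for EPRS, -0.20 for LGR4 and -0.37 for EGFR. Others were -0.23 for SPRED1, -0.13 for MCL1, -0.32 for ABCA3, -0.24 for ARHGAP11A, -0.21 for ARHGAP5 and -0.23 for USP16. Where WT10 alone rose, the difference was -0.41 for COL7A1, -0.28 for INHBA, -0.26 for CPEB4, -0.26 for CLDN1, -0.21 for TGFA, -0.81 for IL7R, -0.34 for TNFAIP3, -0.27 for DDIT4 and -0.50 for SLC26A7. Where WT10 alone fell, it was 0.26 for IGFBP3, 0.22 for MYL9, 0.20 for LEF1, 0.19 for FZD8, 0.18 for C7orf50, 0.30 for ID3 and 0.11 for ZFP36L1. With WT6 rising and WT10 falling, the values were 1.03 for ARC, 0.45 for TAGLN, 0.41 for HIST1H1C, 0.35 for L1CAM, 0.23 for ARFRP1 and 0.32 for CLU. With WT6 falling and WT10 rising, they were -0.59 for BMPER, -0.38 for EPB41L3, -0.26 for ZNF721, -0.25 for PTX3 and -0.15 for GFPT2. For genes that moved the same way at unequal rates, they were -0.31 for NUP210, -0.27 for DLGAP5, -0.33 for KIF14, -0.26 for KRT80, -0.43 for IL1B, 0.26 for RELB and -0.21 for NPC1.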

How the results depend on the processing

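The count of differences was 1817, and 973 with the length trend removed. It was 3 with the 10 wild type libraries only, 0 with the log2 RBM47 value in place of the dose, 251 with the dose as a block, 1198 without precision weights, 6 without WT6 at 5 and 25 ng/ml and 12 without both wild type clones at 25 ng/ml. Leaving out 1 library gave 59 (WT10 at 0) to 3714 (WT6 at 5), with 73 without WT6 at 25, 763 without WT6 at 1, 865 without WT10 at 1 and 1087 without WT10 at 5. With length removed it was 123, 0, 8 and 71 under the wild type libraries, RBM47 value, 2 WT6 libraries and 25 ng/ml settings. Also with length removed, it was 1100 with the dose as a block, 1825 with GC content removed too and 626 on the rank of the dose. Leaving out 1 library with length removed gave 121 to 2344. Without the length control DESeq2 called 2433 and edgeR 1685, and with length removed they called 1422 and 913.

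The genes called in WT6 only were 1420. They were 629 with length removed, 0 with the wild type libraries only or the RBM47 value, 3 without WT6 at 5 and 25, 12 without both clones at 25, and 28 to 2472 without 1 library. Those called in WT10 only were 122. They were 0 with the wild type libraries only, the RBM47 value or without both clones at 25, 204 with length and GC removed, 2 without WT6 at 5 and 25, and 1 to 343 without 1 library. The opposite genes were 44. They were 3 with the wild type libraries only, 78 with length and GC removed, 0 with the RBM47 value or either pair left out, and 0 to 142 without 1 library. The cause of these shifts was not tested.

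Of the 103 named genes, 103 kept their call status with length removed, 5 with the wild type libraries only (ARC and BMPER, and 3 not called in either), 45 with the dose as a block, 21 without WT6 at 25, 23 without the untreated WT10 library, 4 without WT6 at 5 and 25 and 6 without both clones at 25. With the RBM47 value 2 of 102 did. Without WT6 at 5 and 25 the difference reversed for FBXO32 (-0.26), MAN2A1 (0.0028), RPL13 (-0.017), NUP155 (0.022), LAMB1 (0.0091), MMP24 (-0.038), MT1X (-0.0058), HLA-B (-0.10), EGFR (0.038), SLC6A8 (-0.26) and ARHGAP11A (0.0052). SLC6A8 also reversed without WT6 at 25 (-0.059, against 0.55 without the untreated WT6 library) and without both clones at 25 (-0.036). The fit with the dose as a block is the one that pairs WT6 and WT10, by dose.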

Other observations

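Some lists had single members with called differences in both fits that are not described above. ID3, an inhibitor of basic helix-loop-helix factors that BMP signals induce, went from 1256 to 556 in WT10, falling at every dose, and was 2773 to 4210 in WT6. LGR4, a receptor for R-spondins, fell in WT6 from 1002 to 470 and was 595 to 715 in WT10. ABCA3, a lipid transporter, fell in WT6 from 522 to 163. ARSA, a lysosomal sulfatase, rose in WT6 at every dose from 93.2 to 305. USP16, a deubiquitinase of histone H2A, fell in WT6 at every dose from 1129 to 478 and was 550 to 670 in WT10.

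The counts of the next 4 lists are to be read against 7.28% of all genes higher and 7.09% lower, and 4.5% and 3.53% with length removed. Of 68 chaperones 6 were higher and 9 lower in WT6, and 3 and 7 with length removed, with a median difference of -0.002 over the list. Of 36 genes of TGF-beta signaling 3 were higher and 5 lower, and 4 and 3 with length removed. Of 28 Wnt genes 2 were higher and 3 lower, and 2 and 1 with length removed. Of 47 lysosomal genes 4 were higher and 2 lower, and 4 and 3 with length removed.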
